A study of Mus musculus with 18 samples.

Results

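Heart muscle of mice given vehicle was set against quadriceps of mice with intact EglN1, to ask which genes separate the working heart from a mostly fast limb muscle in this series. The members were the 3 arrays titled as heart control and the 3 arrays titled as wild-type quadriceps, 6 of 18 arrays in all, and the quantity read was the heart minus quadriceps difference in log2 signal for every gene. Mice were on a C57BL/6 background and fed chow. The hearts came from mice of EglN1 WT genotype that received the vehicle of FG-4497, an inhibitor of the EglN oxygen-sensing enzymes, and were collected together with hearts of mice given the drug. The quadriceps came from another experiment, in which mice of EglN1 WT genotype carried a Cre recombinase of skeletal muscle and had received tamoxifen for 3 days. No Cre or tamoxifen is recorded for the mice that gave the hearts. Tissue, experiment, tamoxifen and Cre therefore changed together between the groups and cannot be told apart, so a gene was called only when its difference was at least 2 on the log2 scale, which is 4-fold, and passed the test. The labels do not name the promoter that drives Cre, and they describe the arrays of each group as biological replicates.

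Heart and skeletal muscle build the same striated contractile apparatus from related genes. Many of its proteins have one gene used in heart and another used in skeletal fibres, and slow skeletal fibres share several of the heart forms. Fast fibres of limb muscle contract quickly, release calcium through the skeletal ryanodine receptor and burn glycogen, whereas cardiomyocytes beat without pause, are coupled to one another through intercalated discs and oxidise mainly fatty acids. Position along the body is recorded in limb muscle by Hox and other patterning genes that the heart does not share.

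All 3 marker genes separated the tissues as labelled. Myh6, the fast cardiac myosin heavy chain, read 14.13, 14.06 and 14.09 in the hearts, against 7.19, 7.89 and 6.93 in quadriceps (log2 signal). Tnni3, the cardiac troponin I, read 13.95, 13.97 and 13.93 in the hearts, against 6.50, 7.94 and 6.57 in quadriceps. Myh4, the fastest myosin heavy chain of limb muscle, ran the other way, with 6.13, 6.95 and 6.31 in the hearts and 13.98, 14.06 and 14.00 in quadriceps. The groups were far apart for each marker, and the spread that remained lay mostly in the tissue where the gene was low. Quadriceps replicate 2 had the highest value of that group for Myh6 and Tnni3, and without it their differences were 7.04 and 7.42 in place of 6.76 and 6.95.

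Of 11963 genes tested, 192 were called higher in heart (1.6%) and 242 lower (2.02%), 434 in either direction (3.63%), by limma with Benjamini-Hochberg adjustment and the minimum size. Without the minimum, 32.5% of genes passed as higher and 33.4% as lower (65.8% in either direction), and the arrays of the groups did not overlap for 71.0% of genes, so passing the test alone was common here. Counts of called list members below are to be read beside these shares of 1.6% higher and 2.02% lower. The median difference of all genes tested was 0.0117. Array medians ran from 6.69 to 6.81. Correlations across probe sets were 0.986 to 0.994 within the groups and 0.942 to 0.949 between heart and quadriceps. Signals below 6.598, the 40th percentile of all genes, were treated as not measurable. Where a group lay wholly under that level, the size given is a lower bound, counted between the level and the mean of the brighter tissue, which applied to 56 genes called higher and 52 called lower. Calls use the measured difference, and at their lower bounds 175 genes higher and 232 lower still reached 2. Among genes named here, Hey2, Cxadr, Dsc2, Cidea, Hoxc6, Chad and Mir133a-2 were called with a bound short of 2. Counted by bounds, a difference of 4 or more, a 16-fold change, was reached by 34 genes higher and 42 lower. The filter is on the mean of all 6 arrays, so a gene measurable in 1 tissue alone passed it only if bright there, and the medians of gene lists below describe the members that passed. With tissue RNA, fewer cells of a type and less RNA per cell cannot be told apart.

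**Figure D1:**
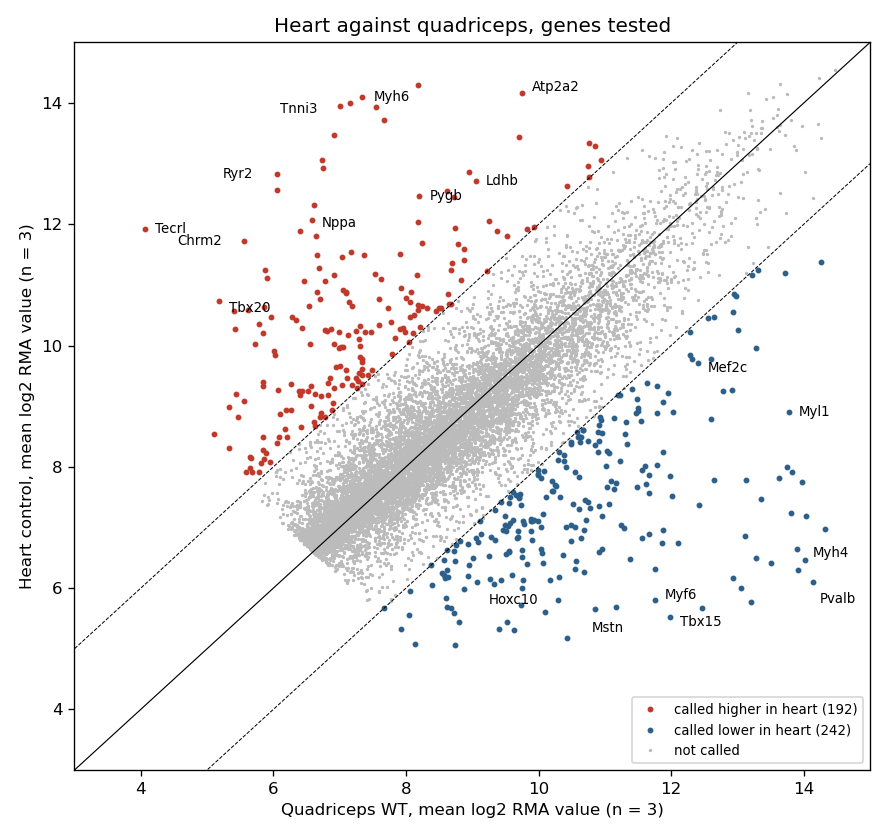
Mean log2 signal of each tested gene in heart (vertical axis) against quadriceps (horizontal axis), 3 arrays each, with equal values on the solid line and differences of 2 on the dashed lines. The 192 genes called higher in heart (red) include Tecrl, Ryr2 and Chrm2 at the far left, and the 242 called lower (blue) include Pvalb and Myh4 at the far right.

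The genes with the largest rises in heart were mostly of the contractile and calcium machinery. Tecrl, an endoplasmic reticulum protein whose loss in people causes a catecholaminergic arrhythmia, read 12.13, 11.53 and 12.13 in the hearts, against 3.78, 4.14 and 4.29 in quadriceps. Since all quadriceps arrays lay below the measurable level, the difference was at least 5.33, or at least 40.2-fold. Soleus of the same experiment as the quadriceps, a slow postural muscle, read 9.65, 10.09 and 9.81, between the other tissues. Pln, phospholamban, which restrains the calcium pump of the sarcoplasmic reticulum, read 13.94, 13.99 and 14.04 in the hearts and 6.84, 7.85 and 6.77 in quadriceps (difference 6.84, standard error (SE) 0.24, limma adjusted p = 1.08e-08). Fhl2, a LIM-domain protein of the sarcomere, read 13.16, 12.97 and 13.07 in the hearts and 6.54, 6.84 and 6.83 in quadriceps (difference 6.33, SE 0.10, adjusted p = 4.99e-11). Lrrc10 and Tnni3k, a leucine-rich repeat protein and a troponin-binding kinase of cardiomyocytes, were higher by at least 4.65 and at least 3.99, both named after their values were seen.

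The 15 genes with the largest falls were of skeletal muscle, and most of them stood in the list of fast-fibre genes. Pvalb, parvalbumin, the soluble calcium buffer that speeds relaxation of fast fibres, read 6.16, 6.33 and 5.79 in the hearts and 14.13, 14.15 and 14.13 in quadriceps. It fell by at least 7.54 on the log2 scale, or at least 186-fold. Ampd1, the AMP deaminase of skeletal muscle, read 5.28, 6.10 and 5.96 in the hearts and 13.11, 13.29 and 13.23 in quadriceps and fell by at least 6.61. Car3, a carbonic anhydrase of skeletal muscle, differed by -6.57 (SE 0.14, adjusted p = 4.29e-10). Not all of the 15 were lower in soleus than in quadriceps: Car3 read 14.03, 14.11 and 14.10 in soleus against 13.89, 13.65 and 13.90 in quadriceps, and the slow myosin-binding protein Mybpc1 read 13.53, 13.46 and 13.52 in soleus against 12.46, 12.60 and 12.34 in quadriceps. Of 19 fast-fibre genes tested, 0 were called higher and 16 lower, with a median of -6.26, and the 3 that missed the minimum size were Mylk4 (-1.88), Pfkm (-1.16) and Pygm (-1.16). Among the 19, 4 passed the filter through quadriceps alone (Pvalb, Tnnc2, Ampd1 and Myh1), and the median is of measured differences, not bounds. Myh1 and Myh2, the faster and slower type II myosins next to Myh4, differed by at least -6.45 and by -5.44.

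Upstream sequences are shown for 2 genes that rose and 2 that fell, taken from RefSeq on the GRCm38.p6 assembly, each 250 bases that end just before the annotated start. They were chosen after their letters were seen, as windows that hold motifs of muscle factors. Capitals mark matches on either strand to the MEF2 consensus, the CArG box bound by serum response factor, the letters GATAA of GATA factors, the E-box CAGCTG of MyoD-type factors, and the TATA box letters TATAAA. Casq2 encodes the cardiac calsequestrin and Myl3 the slow and ventricular essential myosin light chain. The Myl3 window lies at chr9:110763428-110763677 (+), Casq2 at chr3:102086165-102086414 (+), Myh4 at chr11:67237562-67237811 (+) and Myh1 at chr11:67199852-67200101 (+).
Myl3: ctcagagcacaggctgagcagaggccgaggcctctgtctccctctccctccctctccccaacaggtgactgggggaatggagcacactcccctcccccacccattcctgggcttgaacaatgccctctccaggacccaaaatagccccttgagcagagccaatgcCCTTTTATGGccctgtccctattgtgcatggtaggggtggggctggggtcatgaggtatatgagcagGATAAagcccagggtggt
Casq2: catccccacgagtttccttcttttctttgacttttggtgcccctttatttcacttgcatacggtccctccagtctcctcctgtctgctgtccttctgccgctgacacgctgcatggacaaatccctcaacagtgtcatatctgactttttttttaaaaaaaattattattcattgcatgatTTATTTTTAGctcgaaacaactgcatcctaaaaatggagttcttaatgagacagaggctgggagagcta
Myh4: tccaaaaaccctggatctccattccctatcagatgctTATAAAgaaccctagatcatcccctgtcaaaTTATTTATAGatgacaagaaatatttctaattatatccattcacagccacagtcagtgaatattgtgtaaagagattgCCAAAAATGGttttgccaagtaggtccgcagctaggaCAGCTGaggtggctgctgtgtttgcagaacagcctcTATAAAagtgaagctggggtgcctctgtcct
Myh1: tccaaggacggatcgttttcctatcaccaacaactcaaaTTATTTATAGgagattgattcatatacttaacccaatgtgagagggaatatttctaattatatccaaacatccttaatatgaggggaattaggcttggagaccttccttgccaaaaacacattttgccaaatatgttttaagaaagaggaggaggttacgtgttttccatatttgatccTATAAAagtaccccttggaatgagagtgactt

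The Myl3 window holds a CArG box and GATAA, and the Casq2 window a MEF2 match. Myh4 and Myh1 share the MEF2 match TTATTTATAG, which also holds TATAAA on its other strand, and Myh4 alone of the pair has a CArG box and CAGCTG. Over windows of the same length, a MEF2 match was present in 3.5% of 200 windows of genes called higher, in 4.3% of 256 windows of genes called lower and in 1.74% of 12154 windows of all genes tested. CAGCTG was present in 15.5% and 19.9% of the windows of genes called higher and lower and in 12.6% of those tested. GATAA stood at 20.5%, 14.8% and 14.6%, the CArG box at 3.0%, 1.56% and 1.23%, and TATAAA at 10.5%, 9.77% and 6.8%, in the same order of sets. A match describes letters and not a bound site, and genes with several annotated starts count once per start.

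Paralogue pairs gave the plainest picture of the contractile apparatus. Of 27 pairs of a form listed for heart and a form listed for skeletal muscle, 25 had both measured. Among 25 heart forms tested, 19 were called higher and 0 lower (median 4.41). Among 25 skeletal forms tested, 0 were called higher and 21 lower (median -5.75). Of the heart forms 3 passed the filter through heart alone, and of the skeletal forms 2 through quadriceps alone. Not every pair divided this way. Jph2 and Tmod1, entered as heart forms, differed by -0.97 and -0.34, and their skeletal forms Jph1 and Tmod4 by -3.81 and -3.31. Cox7a2 and Cox7a1, entered as heart and skeletal form of a cytochrome oxidase subunit, were both higher in heart, by 0.44 and 1.15. Neither was called. Cox7a1 had a mean of 13.88 in heart and 12.73 in quadriceps, so it is not a form of skeletal muscle alone. Pairs other than Cox7a2 and Cox7a1 were listed for their known use in the tissues, so their direction describes how strongly the arrays separate the forms.

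**Figure D2:**
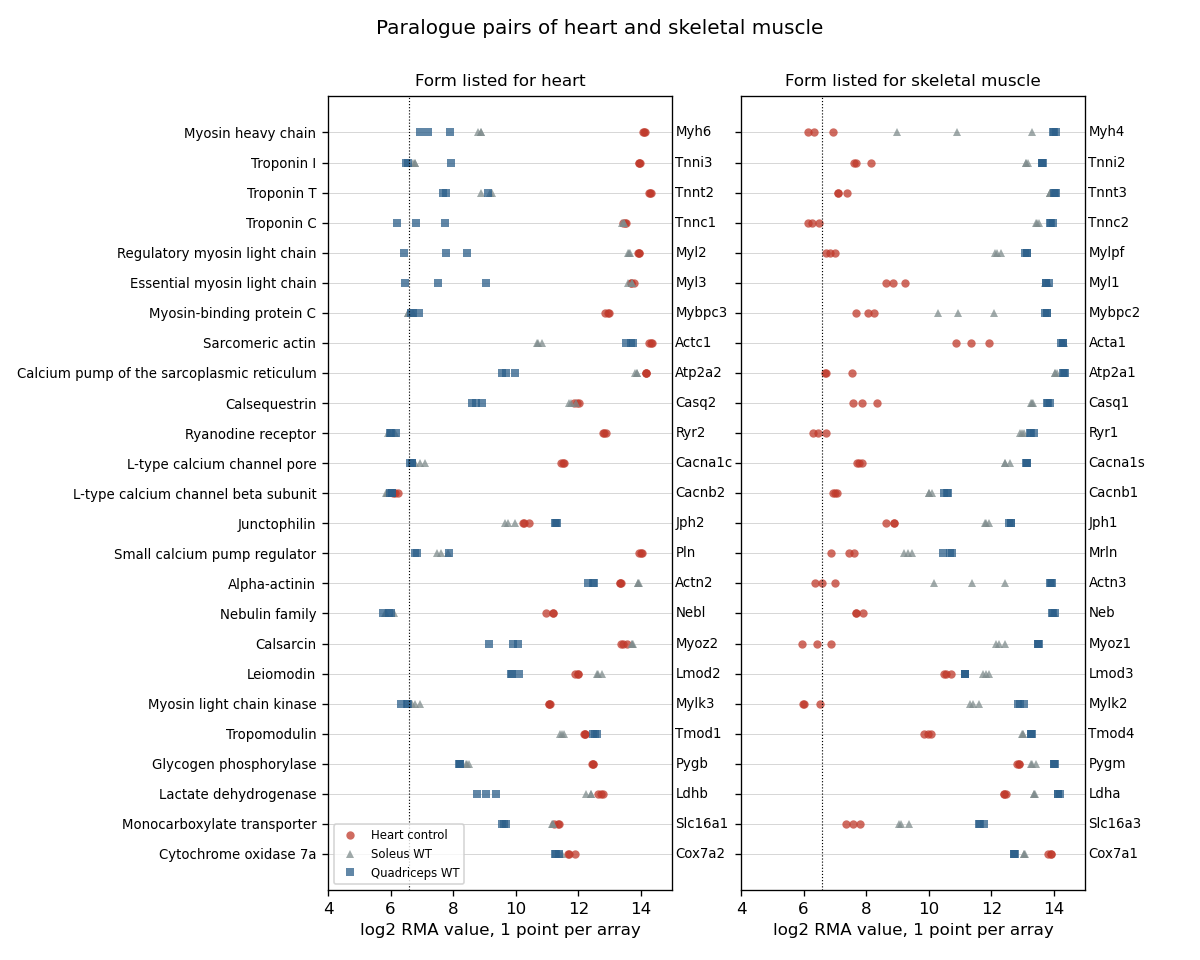
Log2 signal of the heart form (left) and the skeletal form (right) of each paralogue pair, 1 point per array, in heart (red circles), soleus (grey triangles) and quadriceps (blue squares), with the measurable level of 6.598 dotted. Heart forms such as Tnni3, Ryr2 and Mybpc3 are high in heart alone, while Tnnc1, Myl2, Myl3 and Atp2a2 are high in heart and soleus.

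Troponin genes behaved in several ways. Tnnt2, the cardiac troponin T, read 14.32, 14.26 and 14.29 in the hearts and 7.77, 9.11 and 7.67 in quadriceps, with quadriceps replicate 2 again highest. Tnnc1, the troponin C of heart and slow fibres, read 13.50, 13.43 and 13.51 in the hearts, against 7.75, 6.80 and 6.20 in quadriceps, and soleus read 13.46, 13.38 and 13.46. The fast forms Tnnc2, Tnni2 and Tnnt3 differed by at least -7.32, by -5.82 and by -6.85. Tnni1 and Tnnt1, the slow skeletal forms of troponin I and T, were low in both tissues. Tnni1 read 7.10, 7.29 and 6.93 in the hearts and 7.67, 6.64 and 6.98 in quadriceps, a difference of 0.01 (SE 0.22, adjusted p = 0.963), while soleus read 13.21, 13.22 and 13.14. The heart and quadriceps arrays overlapped for Tnni1, whereas for Tnnc1 the heart arrays lay beside those of soleus.

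Myosin and its partners followed the same division. Myl2, the regulatory light chain of slow fibres and ventricle, read 13.90, 13.95 and 13.95 in the hearts and 8.45, 7.77 and 6.44 in quadriceps. Myl3 read 13.68, 13.78 and 13.69 in the hearts and 9.03, 7.53 and 6.46 in quadriceps. For both genes and for Tnnc1 and Myh7 the spread was within quadriceps, where replicate 1 was highest and replicate 3 lowest. The Myl3 difference of 6.04 was 6.72 without quadriceps replicate 1 and 5.44 without replicate 3, shifts of over 1.5 times on the linear scale that kept the call. Myh7, the slow cardiac and skeletal myosin, stood at 9.45, 9.69 and 9.64 in the hearts, at 8.60, 7.08 and 6.78 in quadriceps, and at 13.42, 13.30 and 13.47 in soleus (difference 2.11, SE 0.38, adjusted p = 0.000781). Myh7 missed the minimum size in 2 of 15 alternatives. Mybpc3, the cardiac myosin-binding protein C, read 12.84, 12.95 and 12.98 in the hearts and 6.72, 6.90 and 6.66 in quadriceps, and its skeletal relatives Mybpc2 and Mybpc1 differed by -5.75 and by at least -5.87.

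Actin, actinin and Z-disc genes were less evenly divided. Actc1, the cardiac actin, read 14.32, 14.26 and 14.36 in the hearts and 13.74, 13.52 and 13.67 in quadriceps, a difference of 0.67 that was not called, and soleus read 10.70, 10.68 and 10.85. Acta1, the skeletal actin, read 11.91, 11.34 and 10.88 in the hearts and 14.22, 14.28 and 14.29 in quadriceps (difference -2.89, SE 0.20, adjusted p = 1.32e-06). The coding sequences of the actins are nearly identical, so probes of one can bind transcripts of another and their values are uncertain. Actn2, the actinin of all striated muscle, differed by 0.92 and was not called, while Actn3, the actinin of fast fibres, fell by 7.25 on the log2 scale. Nebl, the small nebulin relative of heart, was higher by at least 4.52, and its 2 probe sets gave 2.89 and 5.22. Neb, nebulin itself, differed by -6.24. Among 42 further sarcomere genes tested, 6 were called higher and 11 lower (median -0.70). Ldb3, a Z-disc protein, and Des, desmin, both used by all striated muscle, differed by -0.58 and -0.43 and were not called.

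Calcium handling was divided by paralogue. Ryr2, the calcium release channel of heart, read 12.83, 12.78 and 12.87 in the hearts, against 5.97, 6.18 and 6.00 in quadriceps, at least 6.23 higher, and soleus read 6.13, 5.91 and 5.99. Ryr1, the release channel of skeletal muscle, read 6.31, 6.46 and 6.71 in the hearts and 13.25, 13.36 and 13.25 in quadriceps, and soleus read 12.91, 13.03 and 12.97. For both release channels the soleus arrays lay near the quadriceps arrays and far from the heart arrays. The pumps divided otherwise. Atp2a2 read 14.17, 14.15 and 14.16 in the hearts, 9.98, 9.70 and 9.56 in quadriceps and 13.87, 13.80 and 13.87 in soleus, and Atp2a1, the pump of fast fibres, read 6.67, 7.54 and 6.71 in the hearts, 14.32, 14.36 and 14.29 in quadriceps and 14.03, 14.11 and 14.03 in soleus. Soleus thus had a high signal of both pumps, and heart of 1.

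The voltage sensors and the junction proteins completed that set. Cacna1c, the pore of the cardiac L-type calcium channel, differed by 4.85 (SE 0.07, adjusted p = 2.96e-11) and Cacna1s, its skeletal counterpart, by -5.35 (SE 0.07, adjusted p = 2.38e-11). Stac3, an adaptor that couples Cacna1s to Ryr1, and Cacng1, the skeletal gamma subunit, differed by -4.90 and -4.77. Casq1, skeletal calsequestrin, fell by 5.91 and Casq2 rose by 3.20. Slc8a1, the sodium-calcium exchanger of heart, rose by 2.40, while Slc8a3, its skeletal relative, differed by -3.11. Of 31 genes of calcium handling tested, 6 were called higher and 11 lower (median -1.06). Jph2, the junctophilin of heart and skeletal muscle, was an exception among the heart forms, at 10.41, 10.24 and 10.26 in the hearts and 11.30, 11.31 and 11.24 in quadriceps (difference -0.97, not called). Fkbp1a, a subunit of both release channels, differed by 0.04 (SE 0.06, adjusted p = 0.57).

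Genes of the intercalated disc, the junction between cardiomyocytes, were called higher for 9 of 23 tested and lower for 0 (median 1.07). Among the 23, 4 passed the filter through heart alone. Dsp, desmoplakin, which anchors desmin at desmosomes, read 12.55, 12.59 and 12.54 in the hearts and 6.03, 6.16 and 5.96 in quadriceps, at least 5.96 higher. Cdh2, N-cadherin, read 12.31, 12.23 and 12.44 in the hearts and 6.62, 6.61 and 6.61 in quadriceps (difference 5.71, SE 0.07, adjusted p = 2.38e-11). The desmosomal cadherins Dsg2 and Dsc2 were higher by at least 2.39 and at least 1.94, and Pkp2, plakophilin 2, by 4.28. Gja1, connexin 43, the main gap junction protein of ventricle, rose by 3.85 (SE 0.07, adjusted p = 1.51e-10). Jup, plakoglobin, which also sits at other cell contacts, read 11.61, 11.56 and 11.61 in the hearts and 11.52, 11.32 and 11.28 in quadriceps, a difference of 0.22 that was not called. Xirp2 and Nrap, which skeletal muscle places at its tendon junctions, stood at -1.53 and -0.93 and were not called either.

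Channels that shape the cardiac action potential were called higher for 6 of 26 ion channel genes tested, and 4 were called lower (median 1.17). Among the 26, 6 passed the filter through heart alone. Kcnip2 and Kcnd2, the accessory and pore subunits of the transient outward potassium current, were higher by at least 3.76 and at least 3.31. Kcnj3 and Kcnj5, which form the potassium channel opened by acetylcholine, were higher by at least 3.68 and at least 2.49, and Kcnh2, the rapid delayed rectifier, by 2.37. Clcn1, the chloride channel that stabilises the resting potential of skeletal fibres, stood at 7.12, 7.24 and 7.04 in the hearts and 10.73, 10.76 and 10.67 in quadriceps. Scn4b, a beta subunit of sodium channels, differed by -3.45. Hcn4, the pacemaker channel, read 7.91, 7.81 and 7.44 in the hearts and 6.63, 6.62 and 6.79 in quadriceps, a difference of 1.04 that was not called.

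Of 13 receptors tested, Chrm2 and Agtr1a were called higher (background 1.6%) and 0 lower, with a median of 0.81. Among the 13, 2 passed the filter through heart alone, Chrm2 being 1 of them. Chrm2, the muscarinic receptor through which the vagus slows the heart, read 11.83, 11.66 and 11.71 in the hearts and 5.56, 5.48 and 5.62 in quadriceps, at least 5.13 higher. Agtr1a, the main receptor of angiotensin II, rose by 2.24. Npr1 and Npr3, receptors of natriuretic peptides, differed by 0.43 and 0.81 and were not called. Nppa, atrial natriuretic peptide, read 12.36, 12.02 and 11.85 in the hearts and 6.41, 6.60 and 6.74 in quadriceps (difference 5.50, SE 0.13, adjusted p = 8.9e-10). Nppb, its ventricular relative, was higher by at least 5.29, and Corin, the protease that activates pro-atrial natriuretic peptide, by 5.17. Mstn, myostatin, the inhibitor of skeletal muscle growth, read 5.84, 5.35 and 5.75 in the hearts and 10.95, 10.66 and 10.95 in quadriceps. It fell by at least 4.25 on the log2 scale, and soleus read 6.55, 8.08 and 5.91. Of 23 secreted factors tested, 5 were called higher and 1 lower (median 0.43), and Fgf1 and Fgf16, fibroblast growth factors, were the called members not yet given, at 2.41 and at least 2.65. Among the 23, 3 passed the filter through heart alone, Nppb and Fgf16 included, and Mstn through quadriceps alone.

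Atrial genes were divided. Of 11 tested, 4 were called higher (Nppa, Kcnj3, Kcnj5 and the peptide-amidating enzyme Pam) and 0 lower, with a median of 0.75. Among the 11, Kcnj3 and Kcnj5 passed the filter through heart alone, and 1 gene through quadriceps alone. Myl7, the atrial light chain, read 6.63, 6.72 and 6.17 in the hearts and 6.41, 6.35 and 6.47 in quadriceps and did not pass the filter on low values. Sln, sarcolipin, and Bmp10, 2 other atrial genes, were below the measurable level in every array of both groups. Myl4, the other atrial light chain, read 7.95, 8.20 and 7.74 in the hearts and 9.84, 9.84 and 9.79 in quadriceps. The labels give heart muscle and do not say which chambers were taken.

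**Figure D3:**
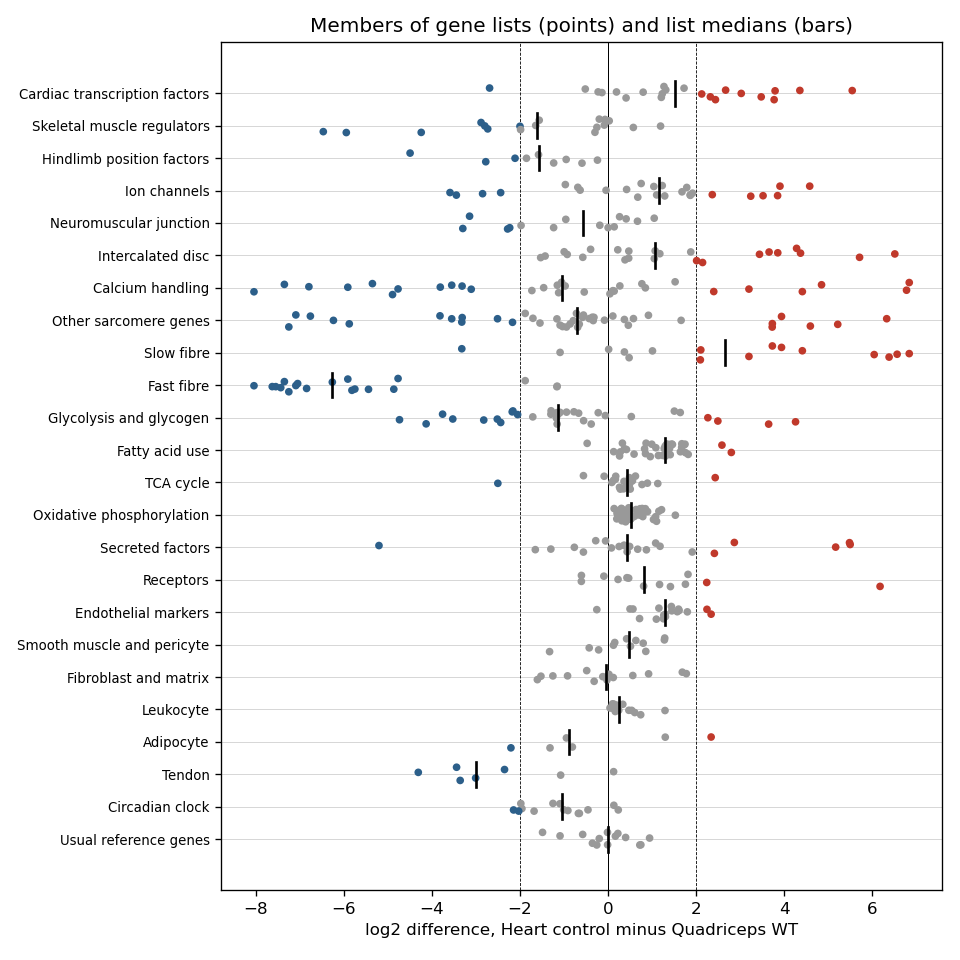
Heart minus quadriceps log2 differences of the tested members of 24 gene lists, 1 point per gene, with a bar at each median and dashed lines at the minimum size of 2. Red points were called higher and blue points lower, fast-fibre genes lie farthest left, and oxidative phosphorylation genes all lie between 0 and 2.

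Transcription factors of the heart were called higher for 10 of 22 tested and lower for 1 (median 1.52). Of the 22, 6 passed the filter through heart alone. Tbx20, a T-box factor of the heart, read 10.73, 10.72 and 10.74 in the hearts, against 5.16, 5.22 and 5.17 in quadriceps, at least 4.13 higher. Myocd, myocardin, the coactivator of serum response factor, was higher by at least 3.61, and Irx4, a ventricular homeobox factor, by at least 2.73. Gata4 and Gata6, zinc-finger factors of cardiac development, rose by 3.02 and 3.77, and Hopx by 3.79. Tbx5, Zfpm2, Hand2 and Hey2 made up the other called members, at 2.44, 2.67, 2.13 and 2.32, of which Zfpm2 and Hey2 were bounded at 2.34 and 1.32. Nkx2-5, a homeobox factor of the heart field, differed by 1.72 and missed the minimum. Mef2c was the member called lower, with 9.70, 9.87 and 9.58 in the hearts and 12.34, 12.42 and 12.46 in quadriceps (difference -2.69, SE 0.08, adjusted p = 5.11e-09), and it is a factor of both heart and skeletal muscle.

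Regulators of skeletal muscle were called lower for 7 of 18 tested and higher for 0 (median -1.60). Of the 18, 4 passed the filter through quadriceps alone. Tbx15, a T-box factor of fast fibres, read 5.46, 5.78 and 5.33 in the hearts and 11.94, 12.05 and 11.98 in quadriceps, and fell by at least 5.39. Myf6, the myogenic factor of mature fibres, read 5.95, 5.86 and 5.62 in the hearts and 11.87, 11.74 and 11.66 in quadriceps, and fell by at least 5.16. Eya4 and Eya1, cofactors of sine oculis homeobox proteins, differed by at least -3.96 and by -2.88, and Six4 by -2.001, a call lost in 5 of 15 alternatives. Myod1, the myogenic factor of myoblasts and fast fibres, differed by -1.64, and Sox6, which represses slow genes in fast fibres, by -1.99, both short of the minimum.

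Of 16 position genes of the hindlimb measured, 9 passed the filter, and 3 were called lower and 0 higher. Those 3 passed through quadriceps alone, with all heart arrays below the measurable level, and among the 7 that did not pass the heart mean was lower for 5 and higher for 2. Hoxc10 read 5.80, 6.20 and 5.41 in the hearts and 10.26, 10.33 and 10.31 in quadriceps, and fell by at least 3.70. Hoxc9 and Hoxc6 differed by at least -2.01 and at least -1.46, with the Hoxc6 call lost in 2 of the 14 alternatives that tested it. Pitx1, the hindlimb identity factor, read 6.59, 6.71 and 6.60 in the hearts and 6.94, 6.74 and 6.95 in quadriceps, close to the measurable level in both tissues. Genes of the neuromuscular junction, where motor nerves contact skeletal fibres, were called lower for 4 of 14 and higher for 0 (median -0.57). Among the 14, 2 passed the filter through quadriceps alone. Musk, the receptor kinase that organises the junction, read 6.00, 6.14 and 6.24 in the hearts and 9.56, 9.12 and 9.60 in quadriceps. Chrna1 and Chrne, subunits of the adult acetylcholine receptor, differed by at least -2.13 and by -2.28, and Ache, which breaks down acetylcholine, by -2.23. Chrng, the fetal subunit, had equal means of 6.74 in both tissues.

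Fuel genes differed by isoform and along the glycogen pathway. Pygb, the brain-type glycogen phosphorylase that heart also uses, read 12.48, 12.42 and 12.47 in the hearts and 8.22, 8.18 and 8.20 in quadriceps (difference 4.26, SE 0.06, adjusted p = 4.32e-11). Ldhb, the lactate dehydrogenase subunit of oxidative tissue, read 12.64, 12.71 and 12.77 in the hearts, 9.04, 9.37 and 8.78 in quadriceps and 12.41, 12.24 and 12.40 in soleus. The muscle forms Pygm and Ldha differed by -1.16 and -1.71 and were not called. Pfkfb3 and Pfkfb2, kinases that set the level of the glycolytic activator fructose 2,6-bisphosphate, went in opposite directions, with Pfkfb3 at 6.85, 6.73 and 6.89 in the hearts and 11.47, 11.93 and 11.29 in quadriceps, and Pfkfb2 higher in heart by 2.49. Phosphorylase kinase subunits Phkg1, Phka1 and Phkb differed by -4.13, -2.82 and -2.44. Gpd1 and Gpd2, the cytosolic and mitochondrial glycerol phosphate dehydrogenases that carry reducing equivalents into mitochondria, differed by -3.53 and -3.76. Of 33 genes of glycolysis and glycogen tested, 4 were called higher and 10 lower (median -1.14).

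Genes of fatty acid use were called higher for 2 of 36 (background 1.6%) and lower for 0, with a median of 1.30. Lpl, lipoprotein lipase, which frees fatty acids from circulating fat, read 13.27, 13.39 and 13.37 in the hearts and 10.89, 10.90 and 10.48 in quadriceps. Dgat2, which makes triglyceride, rose by 2.80. Of the 36, 35 had a positive difference and 34 passed the test without the minimum size, against 32.5% of all genes. Cd36, the fatty acid transporter, stood at 1.76 and Fabp3, the fatty acid binding protein of muscle and heart, at 1.33. Oxidative phosphorylation genes were called for 0 of 41 in either direction, yet 41 of 41 had a positive difference and 40 passed the test without the minimum (median 0.51). Their differences ran from 0.14 for Ndufs4 to 1.53 for Cox8a, all under the minimum size, and tissue and experiment cannot be told apart. Of 23 genes of the TCA cycle, 1 was called in each direction, against 1.6% higher and 2.02% lower of all genes (median 0.44). Idh2, the mitochondrial isocitrate dehydrogenase, was called higher (2.43) and Pcx, pyruvate carboxylase, lower (-2.50). Nnt, which transfers hydride from NADH to NADP in mitochondria, stood at 12.58, 12.66 and 12.67 in the hearts, at 10.74, 10.003 and 10.56 in quadriceps and at 12.73, 12.73 and 12.34 in soleus, a difference of 2.201 whose call was lost in 1 of 15 alternatives.

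Transport and regulators of fuel use were mixed. Slc16a3, the lactate exporter of fast fibres, read 7.34, 7.79 and 7.57 in the hearts and 11.76, 11.61 and 11.62 in quadriceps, and Slc16a1, the lactate and pyruvate carrier of oxidative tissue, differed by 1.68 and was not called. Bdh1, a ketone body dehydrogenase, was the 1 gene called higher among 25 of fuel choice, ketone use and energy buffering, where 5 were called lower. Ucp3, an uncoupling protein of skeletal muscle, and Gpt2, an alanine aminotransferase, differed by -2.32 and -2.15. Pdk4, the kinase that shuts off pyruvate oxidation in fasting, read 12.56, 12.82 and 12.48 in the hearts and 12.96, 12.50 and 12.82 in quadriceps, and the groups overlapped. Prox1, a homeobox factor, was the 1 called among 21 regulators of mitochondria, at 9.91, 10.04 and 10.11 in the hearts and 6.57, 6.42 and 6.66 in quadriceps. Ppargc1a, the coactivator PGC-1 alpha, Ppara, the fatty acid-sensing receptor, and Esrrb, an orphan receptor, were higher by 1.77, 1.57 and at least 1.34, short of the minimum.

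Myosin genes also carry microRNAs in their introns. The Mir208a hairpin lies inside Myh6 (chr14:54949060-54949142) and the Mir499 hairpin inside Myh7b (chr2:155622880-155622958). The mature sequences, from RefSeq on GRCm38.p6, are shown because their seeds, in capitals, differ only in the last of bases 2 to 8.
miR-208a-3p: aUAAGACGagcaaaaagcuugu
miR-499-5p: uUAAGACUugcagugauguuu

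The arrays read the precursor transcripts and not the mature microRNAs. The Mir208a probe set read 7.86, 7.60 and 8.19 in the hearts, all above the measurable level, and 4.65, 4.29 and 4.71 in quadriceps, at least 1.28 apart. Its mean over the 6 arrays fell short of the filter on low values, so it was not among the genes tested. Mir499 read 5.52, 5.26 and 5.12 in the hearts and 4.77, 4.81 and 4.58 in quadriceps, below that level throughout, while its host Myh7b was higher in heart by 2.10. Mhrt, a long noncoding RNA, was higher by at least 3.68, named after its value was seen. Of 8 microRNA genes tested, Mir133a-2, which is enriched in muscle, was called lower (6.42, 6.26 and 6.45 in the hearts, 8.71, 8.22 and 8.21 in quadriceps), and its call was lost in 3 of the 14 alternatives that tested it. Among the 8, 3 passed the filter through quadriceps alone, Mir133a-2 included, and 1 through heart alone. Another 11 of the 19 measured did not pass, and their heart mean was higher for 9 and lower for 2.

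Markers of other cell types moved with the tissue in part. Of 18 endothelial genes, 17 were higher in heart and passed the test without the minimum size, against 32.5% of all genes (median 1.30). The 2 called (background 1.6%) were Kdr (2.34) and Emcn (2.25), both surface proteins of capillaries. The mean signal of the list was 9.73 to 9.78 in the hearts and 8.42 to 8.56 in quadriceps. Tendon genes went the other way. Of 7 tested, 0 were called higher and 5 lower, and 4 of the 7 passed the filter through quadriceps alone. Fmod, fibromodulin, was called lower, at 7.09, 6.58 and 6.26 in the hearts and 11.31, 10.39 and 11.16 in quadriceps. Tnmd, tenomodulin, was also called, at least 2.08 lower. List means of tendon genes were 6.24 to 6.53 in the hearts and 8.28 to 8.91 in quadriceps. Smooth muscle and pericyte, fibroblast, leukocyte, nerve and epicardial markers had 0 called among 12, 15, 13, 4 and 3 tested, and their medians were 0.46, -0.04, 0.24, -0.08 and 0.55. Another 7 of the 10 epicardial genes measured did not pass the filter, and their heart means were higher by 0.20 to 1.32. Of 6 adipocyte genes, Cidea was called higher and Retn lower, and 2 erythroid genes were not called. The part of these cells in the results above was not tested.

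Genes that follow the time of day or the handling of tissue were read as well. Of 14 clock genes, 12 were lower in heart and passed the test without the minimum size, against 33.4% of all genes (median -1.05). The 2 called (background 2.02%) were Dbp (-2.15, call lost in 1 of 15 alternatives) and Bhlhe41 (-2.03, call lost in 3 of 15). The hour of collection is not given, and its part in the results was not tested. Nr4a1, an early response gene, was called lower (9.51, 8.88 and 8.84 in the hearts, 12.09, 11.75 and 11.79 in quadriceps), 1 of 13 such genes tested. Sex-linked genes had 0 of 6 called, with Xist below the measurable level in every array and Kdm5d on the Y chromosome at 8.15, 8.06 and 8.08 in the hearts and 8.14, 8.15 and 8.01 in quadriceps. Of 14 genes often used as references, 0 were called (median -0.01), and Tbp differed by -0.01.

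The same tissues were also present in 6 further arrays, hearts of mice given FG-4497 at 50 mg per kg and quadriceps of mice whose EglN1 had been deleted. These arrays share none with the comparison above but come from the same experiments, and each group carries a loss or inhibition of EglN enzymes. The call rule gave 201 genes higher in heart (1.68%) and 242 lower (2.02%). Called in both were 171 genes higher, 89.1% of the first set and 85.1% of the second, and 218 lower, 90.1% of each. All 192 and 242 genes of the first set had the same direction in the further arrays, and 191 and 242 of them also passed the test there without the minimum size. The median gap between both differences was 0.17 for each direction. The widest gap was that of Gdpd3, a lysophospholipid phosphodiesterase, which read 9.30, 9.26 and 9.35 in FG-4497 hearts and 8.64, 9.50 and 8.93 in EglN1 KO quadriceps, against 9.18, 9.26 and 9.15 in vehicle hearts and 5.47, 5.66 and 5.17 in WT quadriceps. The 6 heart arrays lay close together, and the KO quadriceps arrays lay far above the WT quadriceps arrays. Pfkfb3 differed by -2.10 in the further arrays and by -4.74 in the vehicle and WT arrays.

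**Figure D4:**
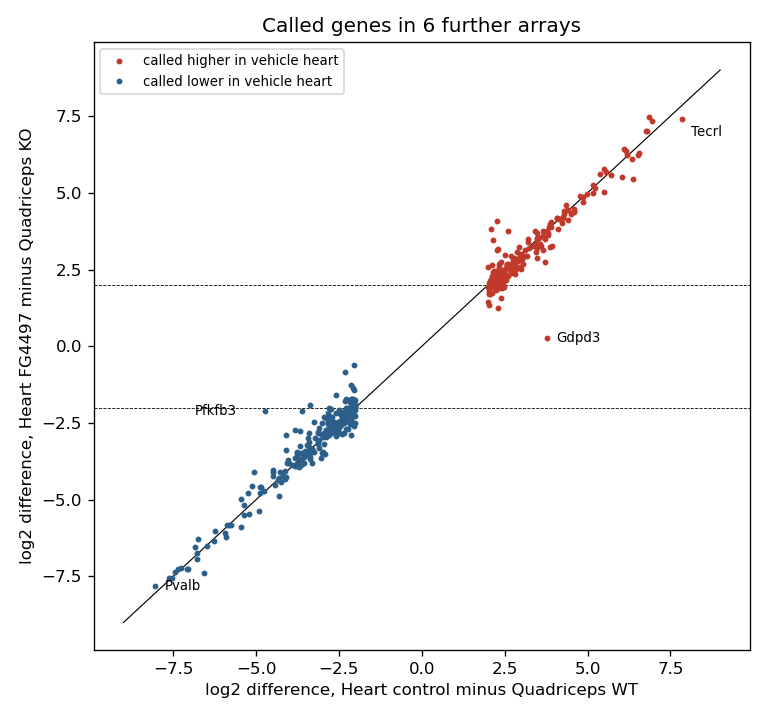
Log2 differences of the 434 called genes, FG-4497 heart minus EglN1 KO quadriceps (vertical axis) against vehicle heart minus WT quadriceps (horizontal axis), with equal values on the solid line. Points follow the line over the whole range, and Gdpd3 (3.77 and 0.28 as measured, with quadriceps WT below the measurable level) lies farthest from it.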

How the data were processed

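Total RNA of mouse heart and quadriceps was read on Affymetrix whole-transcript arrays. The authors deposited log2 signals, and the submitters' processing notes name robust multi-array average (RMA). This method corrects background, gives arrays one distribution and summarises probes, which compresses differences of dim genes. Neither its version nor which arrays went through it together is stated in the labels or notes.

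The file holds 35556 probe sets: 21789 had a single gene in GEO's platform annotation, 1621 more than one and 12146 had no entry. Symbols were updated through gene identifiers of the GRCm38.p6 table for 21698. For each of the 19938 genes the brightest probe set was kept, and genes with a mean above the 40th percentile over the 6 arrays (6.598) were tested. R 4.3.3 and limma 3.58.1 (lmFit, eBayes) gave differences, standard errors and Benjamini-Hochberg adjusted p over all 11963 genes tested. A call needed an adjusted p under 0.05 and a log2 difference of at least 2. With 3 arrays against 3, an exact permutation test of one gene cannot go below 0.1, so limma, which shares variance between genes, was used, and the number of arrays limits precision.

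The comparison, the members and the 33 gene lists (659 genes, 609 measured, 550 tested) were chosen with earlier results of these data known. Genes are named by a rule. It takes, among called genes whose groups do not overlap and leaving out predicted genes, the 15 largest rises and the 15 largest falls, then Myh6, Tnni3, Myh4 and all members of the pairs and of the microRNA list. From every other list it takes up to 8 called members in each direction and the tested member with the smallest difference. The 27 genes outside it, and any list member given only by its difference, were chosen after their values were seen. Alternatives varied normalization, filter, probe set, prior, weights, replicate block, minimum size and arrays. Replicate numbers did not pair the samples: deviations of same-numbered heart and quadriceps arrays correlated at -0.0638, -0.124 and -0.043.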

Additional observations from a re-analysis of the deposited data

How the results depend on the processing

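The counts of 192 genes higher and 242 lower followed the minimum size: 3884 and 3991 with no minimum, 830 and 865 at 1, 81 and 106 at 3, and 522 and 514 by limma's treat against 1. The construction of these alternatives, a looser or stricter size, accounts for the change. Leaving out each array in turn gave 187 to 202 higher and 236 to 251 lower. The other settings gave 161 to 200 and 211 to 244, lowest with a filter at the 60th percentile, which tests fewer genes. With the replicate block the counts were 192 and 242, although the numbers do not pair the samples. Of 148 named genes called, 8 missed the call where tested in at least 1 of the 15 alternatives that kept the minimum size (Bhlhe41, Dbp, Hoxc6, Lmod2, Mir133a-2, Myh7, Nnt, Six4), and 0 changed direction. A further count of 18 named genes, Hoxc6 and Mir133a-2 of the 8 included, fell under the filter at the 60th percentile and were not tested there, so 124 kept the call in all 15. Signs turned for some genes not called whose differences lay near 0. With quantile normalization repeated, Tnni1 stood at -0.066 and Mir615 at -0.038. With array weights, Tnni1 stood at -0.026, Mir145a at 0.050, Mir615 at -0.047 and Tbp at 0.039. Leaving out arrays gave -0.215 to 0.301 for Tnni1, -0.161 to 0.131 for Mir145a, -0.056 to 0.073 for Mir615 and -0.069 to 0.043 for Tbp. The cause was not tested. Differences under 2 are given as values. Experiment and tissue cannot be told apart at any size, and the minimum size does not separate them for the called genes.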
